A study of Mus musculus with 8 samples.

Results

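The matrix metalloproteinases, the ADAMTS proteases and their tissue inhibitors (TIMPs) were followed in arthritic mouse paws. Genes were taken when a row of the deposited array table was annotated with exactly 1 symbol of the form Mmp, Adamts or Timp plus a number, and the row with the highest mean signal stood for each gene. This gave 44 of 19938 named genes, from 68 rows, comprising 22 Mmp, 18 Adamts and 4 Timp genes. The choice used symbols and not differences between groups. Mmp15 and Adamts2 were not analysed here.

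All groups were male DBA1/J mice of 8 to 10 weeks, a strain susceptible to collagen-induced arthritis (CIA), with 8 mice per group. RNA of excised paws, which the sample labels call articular tissue, was profiled on Affymetrix Mouse Gene 1.0 ST arrays with 2 arrays per group. CIA+MLIF mice were injected at the tail base with chicken collagen II (150 µg) mixed with complete Freund's adjuvant, boosted 3 weeks later in incomplete adjuvant, and given weekly nasal monocyte locomotion inhibitory factor (MLIF), a peptide made by the parasite Entamoeba histolytica, begun 1 week before the first injection. CIA mice received the same immunisation without the peptide. Adjuvant+MLIF mice received the adjuvants without collagen plus weekly nasal MLIF, and adjuvant mice received the adjuvants alone. All 4 groups therefore carried the adjuvant, and no untreated mice were among the arrays. The sample labels place collection 4 weeks after the booster, whereas the series text places it before the booster. Sample titles name biological replicates without giving the number of mice behind each array, and the p-values cover only the spread between such arrays.

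Matrix metalloproteinases are zinc proteases that are secreted or membrane-bound as inactive precursors and cleave collagens, proteoglycans and other matrix proteins. Collagenases cut the triple helix of fibrillar collagen, gelatinases digest the unwound chains, and stromelysins cleave proteoglycans and activate other precursors. Several ADAMTS proteases cleave aggrecan, the main proteoglycan of cartilage, and TIMPs bind the active proteases and block them. In inflamed joints these enzymes are produced by synovial fibroblasts, chondrocytes, macrophages, neutrophils and osteoclasts, and they take part in the erosion of cartilage and bone.

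Values are log2 signal, so a difference of 1 is a doubling, and levels of different genes were not compared because each is read by its own probes. A gene was called when limma's adjusted p was under 0.05 over the 28944 probe sets left without control entries, and "rose" and "fell" are used for called genes. CIA replicate 1 stood apart, with a median over the whole table of 6.50 against 6.92 to 6.96 on the other 7 arrays, and the median of all tested probe sets was accordingly shifted by -0.25 in CIA against adjuvant and by 0.24 in CIA+MLIF against CIA. Differences are printed as fitted, without removing this shift, and counts are given on the deposited scale and after quantile normalization. The median standard error of a difference was 0.18. The spread between the 2 arrays of a group was unequal. Their difference had a standard deviation of 0.32 in CIA, 0.26 in CIA+MLIF, 0.21 in adjuvant and 0.09 in adjuvant+MLIF. The fit pooled this spread, so the same estimate served groups that varied unequally. Cartilage and muscle genes were present on all arrays, as paws should show: aggrecan (Acan) lay between 9.57 and 10.20, and creatine kinase (Ckm) between 12.15 and 13.19. Markers of keratinocytes separated both collagen-immunised groups from both adjuvant groups, with values given at the end. In these tissue samples, fewer cells of a type and less RNA per cell cannot be told apart.

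In collagen-induced arthritis, 12 of 44 genes (27.3%) rose against adjuvant mice, and 5 (11.4%) fell. Over all probe sets, 4.3% rose and 14.2% fell, so the share of rises was above the background and the share of falls was not. The rises covered the neutrophil and main interstitial collagenases (Mmp8, Mmp13), stromelysin 1 (Mmp3), both gelatinases (Mmp2, Mmp9), Mmp14, Mmp16, Mmp19, Mmp23, Adamts1, Adamts4 and the inhibitor Timp1. The falls were Timp3, Timp4, Adamts5, Adamts20 and the enamel protease Mmp20. After quantile normalization 20 rose and 4 fell, against 14.4% and 13.7% of all probe sets. The median difference over the 44 genes was 0.06, beside -0.25 over all probe sets. Under all 19 alternatives 10 of the 17 calls held, those of Mmp13, Mmp8, Mmp3, Mmp9, Mmp2, Mmp14, Mmp19, Adamts4, Timp1 and Timp4. The calls of Adamts1, Adamts5, Adamts20, Mmp16, Mmp20, Mmp23 and Timp3 were each lost in 2 to 4 alternatives, except Mmp20, which was lost in 12. The count was 26 without CIA replicate 1 (23.7% of all probe sets), 29 without CIA replicate 2 (61.2%) and 10 without adjuvant replicate 2 (7.43%).

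In MLIF-treated collagen-immunised mice, 11 of 44 genes (25%) fell against CIA mice without the peptide, and 4 (9.09%) rose. Over all probe sets 3.25% fell and 11.5% rose. After quantile normalization 20 genes fell and 4 rose, against 13% and 11.5% of all probe sets. Of the 12 genes that had risen in CIA, 11 were called lower with MLIF, and of the 5 that had fallen, 4 were called higher. These counts rest on the same pair of CIA arrays, once as numerator and once as denominator, and are no independent evidence of each other. Under all 19 alternatives 10 of the 15 calls held, those of Mmp13, Mmp8, Mmp3, Mmp9, Mmp14, Mmp16, Mmp19, Adamts4, Timp1 and Timp4. The call of Timp3 held in only 8 of them and that of Adamts5 in 12, and those of Adamts20 and Mmp23 held in 16 and that of Mmp2 in 18. The count was 24 without CIA replicate 1 (19.9% of all probe sets) and 34 without CIA replicate 2 (60%). In total 27 of the 44 genes passed in neither comparison.

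**Figure D1:**
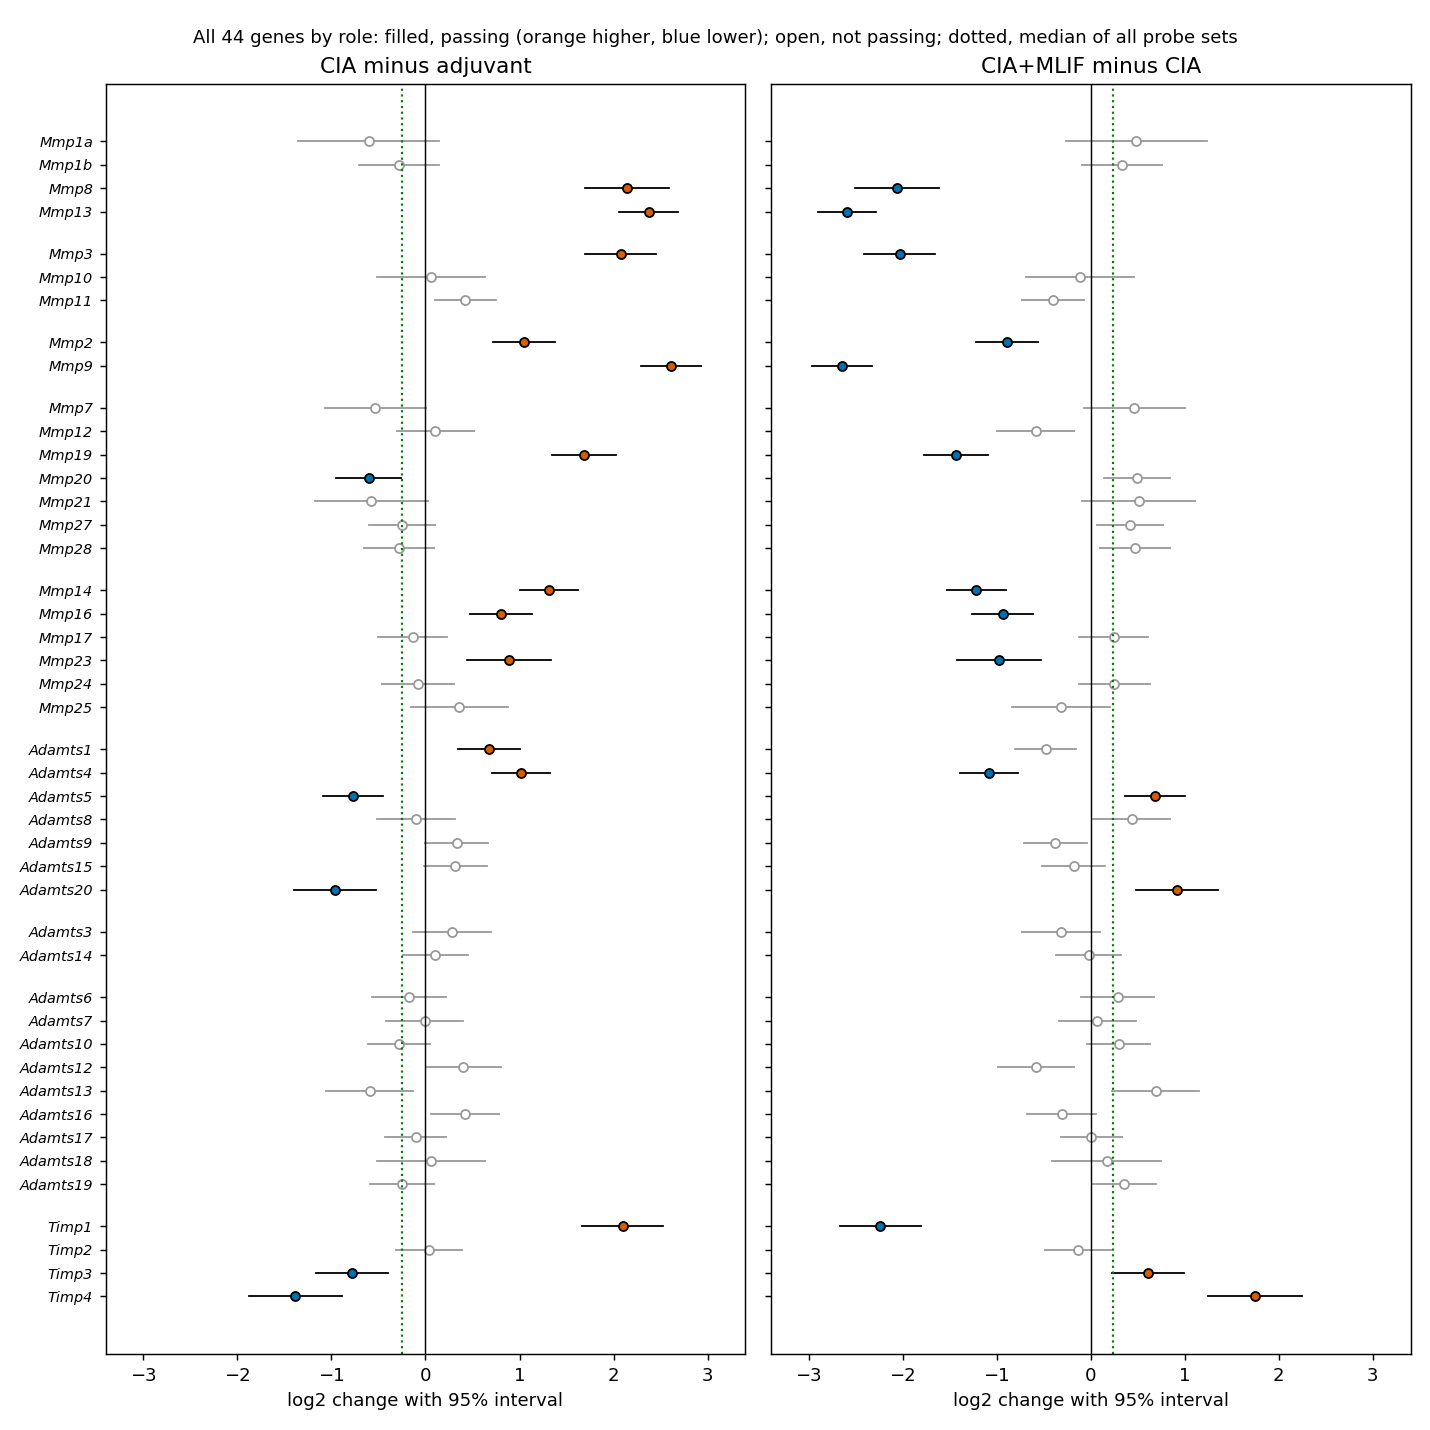
Log2 difference (x axis) of each of the 44 genes (rows, ordered by role from collagenases at the top to inhibitors at the bottom) for CIA minus adjuvant and CIA+MLIF minus CIA, with 95% intervals. Filled points passed (orange higher, blue lower), open points did not, and the dotted line is the median of all probe sets; 12 genes are filled orange for CIA minus adjuvant and 11 filled blue for CIA+MLIF minus CIA.

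Among the 4 collagenases, Mmp13 and Mmp8 rose in CIA and fell with MLIF, and neither Mmp1 gene passed. Mmp13, the main interstitial collagenase of mouse cartilage and bone, had 9.91 and 9.87 on the CIA+MLIF arrays, 12.43 and 12.54 on the CIA arrays, 10.44 and 10.41 on the adjuvant+MLIF arrays, and 10.10 and 10.12 on the adjuvant arrays. The CIA arrays were far above the other 6, and the CIA+MLIF arrays were the lowest. Mmp13 was 5.18-fold higher in CIA than in adjuvant paws (log2 2.37, SE 0.14, adjusted p = 8.2e-06). It differed by -2.59 between CIA+MLIF and CIA (adjusted p = 1.3e-05).

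Mmp8, the collagenase stored in neutrophil granules, had 6.29 and 5.82 with CIA+MLIF, 7.93 and 8.30 with CIA, 6.42 and 6.34 with adjuvant+MLIF, and 6.02 and 5.92 with adjuvant. The CIA arrays again did not overlap with any other, while on the 4 CIA+MLIF and adjuvant arrays Mmp8 lay below the array's median over unannotated control entries, where the signal may be background. With those control medians in place of the lower values, Mmp8 was at least 3.42-fold higher in CIA than in adjuvant paws and at least 3.35-fold lower in CIA+MLIF than in CIA paws. The measured differences were 2.15 between CIA and adjuvant (SE 0.20, adjusted p = 0.00011) and -2.06 between CIA+MLIF and CIA (adjusted p = 0.000256). Mmp1a, a rodent relative of human interstitial collagenase, had 4.68 and 4.04 with CIA+MLIF, 3.36 and 4.40 with CIA, 3.96 and 4.25 with adjuvant+MLIF, and 4.59 and 4.37 with adjuvant. Its close paralog Mmp1b had 3.75 and 3.49 with CIA+MLIF, 3.05 and 3.52 with CIA, 3.46 and 3.45 with adjuvant+MLIF, and 3.51 and 3.63 with adjuvant. Both Mmp1 genes lay below the control median on all 8 arrays, the CIA arrays overlapped with the adjuvant arrays, and the probes of such close copies may not tell them apart.

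**Figure D2:**
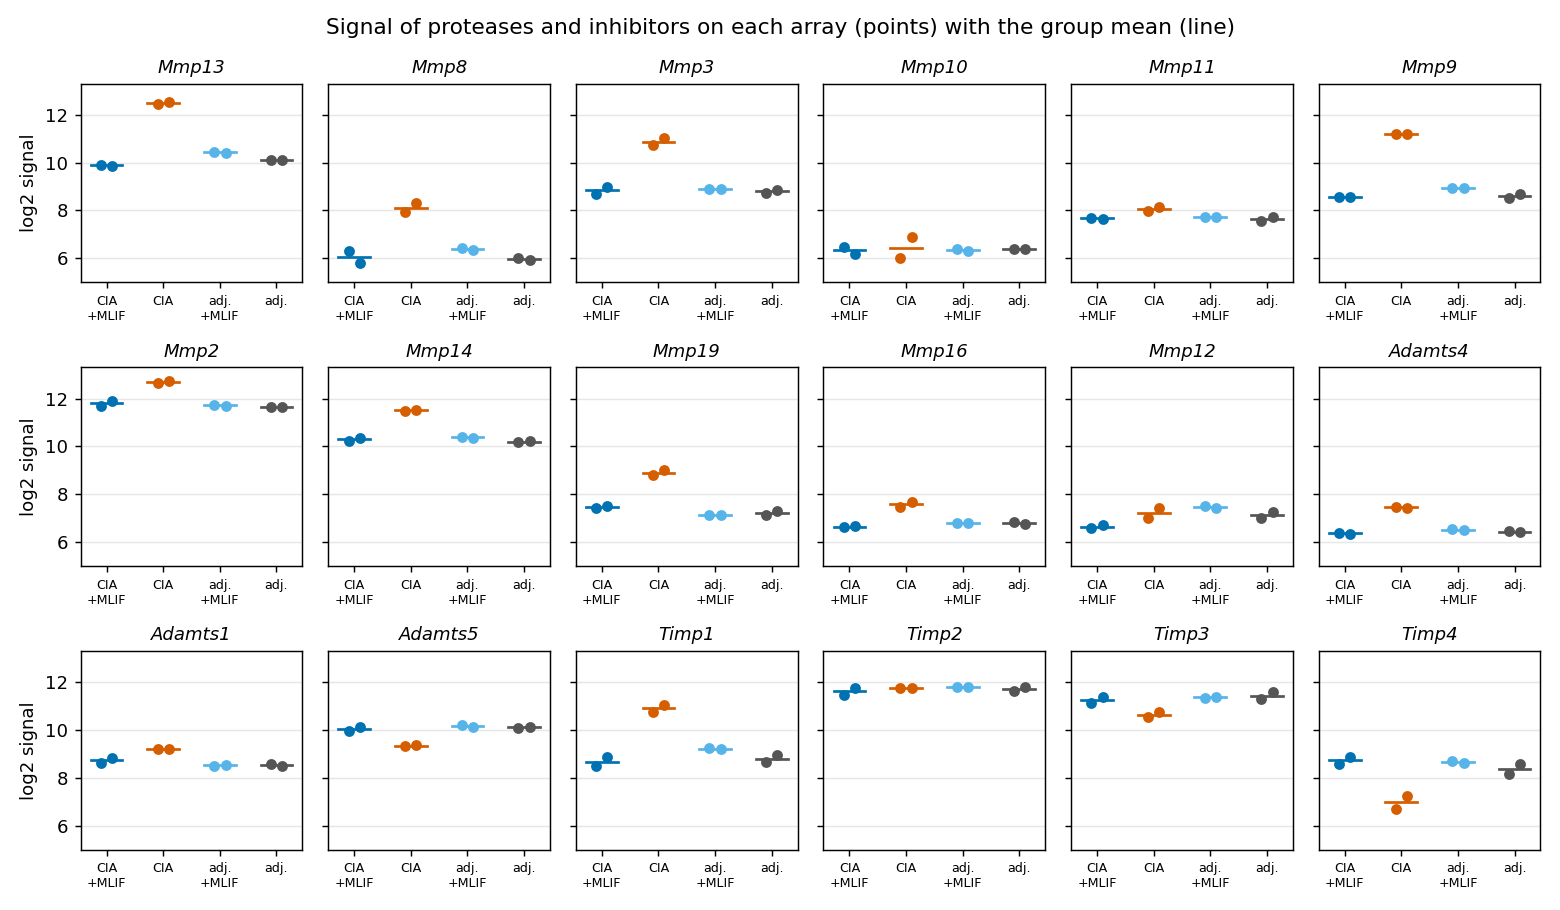
Log2 signal (y axis) of 18 of the 44 genes on each array, by group (x axis; adj., adjuvant), with points for the 2 arrays of a group and a line at their mean. Mmp13, Mmp8, Mmp3, Mmp9, Mmp14, Mmp19, Adamts4 and Timp1 stand apart upward on the CIA arrays, Timp4 and Adamts5 stand apart downward, and the CIA arrays of Timp2 and Mmp10 overlap with the adjuvant arrays.

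Of the stromelysins, Mmp3 alone passed on the deposited scale. Mmp3, which cleaves proteoglycans and activates procollagenases, had 8.69 and 8.98 with CIA+MLIF, 10.73 and 11.01 with CIA, 8.89 and 8.89 with adjuvant+MLIF, and 8.73 and 8.85 with adjuvant. The CIA arrays were the only ones above 10, and the other 3 groups lay within 0.3 of each other. Mmp3 was 4.22-fold higher in CIA than in adjuvant paws (log2 2.08, SE 0.17, adjusted p = 5.1e-05) and differed by -2.03 between CIA+MLIF and CIA (adjusted p = 0.000117).

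Mmp10, stromelysin 2, is close in sequence to Mmp3 but had 6.47 and 6.18 with CIA+MLIF, 6.02 and 6.88 with CIA, 6.38 and 6.30 with adjuvant+MLIF, and 6.40 and 6.37 with adjuvant. The CIA arrays held both the lowest and the highest of the 8 values, and the difference between CIA and adjuvant was 0.06 with an interval from -0.51 to 0.64. On replicate 2 of CIA+MLIF and of adjuvant+MLIF, Mmp10 lay below the control median. On the other arrays of CIA+MLIF, adjuvant+MLIF and adjuvant it lay just above, so part of this signal may be background. Mmp11, stromelysin 3, a product of stromal fibroblasts, had 7.67 and 7.65 with CIA+MLIF, 7.98 and 8.14 with CIA, 7.72 and 7.72 with adjuvant+MLIF, and 7.56 and 7.71 with adjuvant. The CIA arrays were above the other 6, yet the difference of 0.43 between CIA and adjuvant did not pass (adjusted p = 0.0716), whereas after quantile normalization it was 0.56 and passed (adjusted p = 0.00432).

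Both gelatinases rose in CIA and fell with MLIF. Mmp9, gelatinase B, a product of neutrophils and osteoclasts, had 8.55 and 8.57 with CIA+MLIF, 11.21 and 11.21 with CIA, 8.92 and 8.92 with adjuvant+MLIF, and 8.51 and 8.69 with adjuvant. It showed the largest rise of the 44 genes, 6.10-fold in CIA over adjuvant (log2 2.61, SE 0.14, adjusted p = 6.09e-06), and differed by -2.65 between CIA+MLIF and CIA (adjusted p = 1.32e-05). Mmp2, gelatinase A, a product mainly of fibroblasts, had 11.70 and 11.90 with CIA+MLIF, 12.67 and 12.71 with CIA, 11.71 and 11.71 with adjuvant+MLIF, and 11.65 and 11.64 with adjuvant. Mmp2 was 2.07-fold higher in CIA than in adjuvant paws (log2 1.05, adjusted p = 0.00115) and differed by -0.89 between CIA+MLIF and CIA (adjusted p = 0.00393).

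The collagenases, Mmp3 and Mmp10 are neighbours in the genome, whereas Mmp11 lies elsewhere. On mouse chromosome 9, RefSeq places Mmp13, Mmp12, Mmp1b, Mmp3, Mmp1a, Mmp10, Mmp8, Mmp27, Mmp20 and Mmp7 in this order, 10 genes with 0 other protein-coding genes between them. Within the row Mmp13, Mmp3 and Mmp8 rose in CIA, Mmp20 fell on the deposited scale, and the other 6 did not pass. Mmp3 therefore rose between Mmp1b and Mmp1a, and Mmp8 beside Mmp10. Of these neighbours, Mmp1a and Mmp1b lay below the control median on all 8 arrays, and Mmp10 near it outside the CIA arrays. Of the 5 promoters shown, 3 belong to the genes that rose and the other two to neighbours that did not pass. Each sequence is the 120 bases just before the RefSeq start on the plus strand of GRCm38.p6, 5′ to 3′, and capitals mark an AP-1 motif, the site class bound by Fos and Jun proteins.
Mmp13 promoter, chr9:7272394-7272513: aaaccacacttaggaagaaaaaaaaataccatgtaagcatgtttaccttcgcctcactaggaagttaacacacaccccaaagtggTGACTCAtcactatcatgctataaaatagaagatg
Mmp3 promoter, chr9:7445702-7445821: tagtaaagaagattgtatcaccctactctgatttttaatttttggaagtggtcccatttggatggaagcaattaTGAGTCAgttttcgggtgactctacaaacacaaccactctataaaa
Mmp8 promoter, chr9:7558309-7558428: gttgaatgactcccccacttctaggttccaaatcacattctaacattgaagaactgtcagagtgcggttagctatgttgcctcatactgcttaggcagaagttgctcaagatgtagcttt
Mmp10 promoter, chr9:7502222-7502341: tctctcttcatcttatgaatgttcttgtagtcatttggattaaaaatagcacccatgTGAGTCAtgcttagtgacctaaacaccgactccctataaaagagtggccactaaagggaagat
Mmp1a promoter, chr9:7464021-7464140: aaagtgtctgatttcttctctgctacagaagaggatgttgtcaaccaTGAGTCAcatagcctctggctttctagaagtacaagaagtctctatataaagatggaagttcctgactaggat

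The AP-1 motif was searched as TGAGTCA and TGACTCA, which are each other's reverse complement, in windows from 250 bases before to 50 bases after each RefSeq start. It was present in 1709 of 32851 mouse windows (5.2%). Mmp9, Mmp2, Mmp16, Mmp19 and Adamts4, which rose in CIA, had no window and were not searched. Of the 30 genes of the family with a window, 7 held the motif. All 7 lie in the chromosome 9 row of 10 genes, and 0 of the 20 outside that row held it. It began 35 bases before the start in Mmp13, 46 in Mmp3, 63 in Mmp10, 73 in Mmp1a and 93 in Mmp1b, and Mmp12 and Mmp7 held it in 1 of 2 windows. Mmp8, which rose, had no match in its window, whereas Mmp10 and Mmp1a, which did not pass, had one. The motif was thus present both in genes that rose and in genes that were not called, and a match is a description of the sequence only. Mmp1a lay below the control median on all 8 arrays, and Mmp10 lay near it outside the CIA arrays. A change in either may therefore not be measurable.

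**Figure D3:**
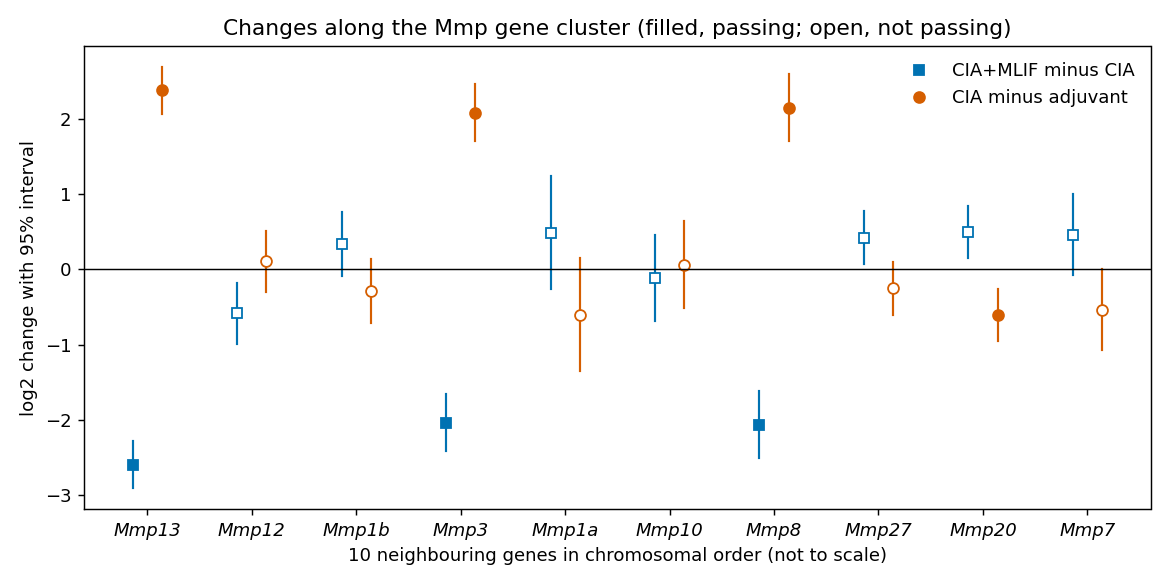
Log2 difference with 95% interval (y axis) of the 10 neighbouring Mmp genes in chromosomal order (x axis, not to scale), with blue squares for CIA+MLIF minus CIA and orange circles for CIA minus adjuvant; filled points passed. Mmp13, Mmp3 and Mmp8 carry large changes of opposite sign in the 2 comparisons, and of the other 7 genes only Mmp20 passed, in CIA minus adjuvant.

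Among the 7 other secreted metalloproteinases, Mmp19 rose in CIA and Mmp20 fell. Mmp19, found in synovium and vessel walls, had 7.40 and 7.52 with CIA+MLIF, 8.78 and 9.01 with CIA, 7.14 and 7.14 with adjuvant+MLIF, and 7.13 and 7.29 with adjuvant. It was 3.22-fold higher in CIA than in adjuvant paws (log2 1.69, SE 0.15, adjusted p = 9.64e-05) and differed by -1.43 between CIA+MLIF and CIA (adjusted p = 0.000411). Its CIA+MLIF arrays lay above both adjuvant groups, but by only 0.25 over adjuvant, with an interval from -0.09 to 0.60.

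Mmp12, macrophage elastase, followed another order. It had 6.58 and 6.71 with CIA+MLIF, 7.02 and 7.44 with CIA, 7.49 and 7.43 with adjuvant+MLIF, and 7.01 and 7.24 with adjuvant. CIA and adjuvant overlapped (difference 0.11, interval -0.30 to 0.51), and the CIA+MLIF arrays were the lowest of the 8. The difference between CIA+MLIF and CIA was -0.59 (adjusted p = 0.0606) on the deposited scale, and it passed after quantile normalization. The difference between CIA+MLIF and adjuvant+MLIF was -0.82 (adjusted p = 0.152), and after quantile normalization it was -0.84 (adjusted p = 0.00921), the only one of the 44 genes to pass in that comparison, beside 1.43% of all probe sets.

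Mmp20, which processes tooth enamel, had 5.67 and 5.67 with CIA+MLIF, 5.02 and 5.34 with CIA, 5.87 and 5.85 with adjuvant+MLIF, and 5.79 and 5.78 with adjuvant. Its fall of -0.61 in CIA (adjusted p = 0.0267) took place below the control median on all 8 arrays, and after quantile normalization the difference was -0.18 (adjusted p = 0.242). Mmp7, Mmp21 and Mmp27 were also below the control median on all 8 arrays. With Mmp28 they passed in none of the comparisons on the deposited scale.

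Of the 6 membrane-bound metalloproteinases measured, Mmp14, Mmp16 and Mmp23 rose in CIA and fell with MLIF. Mmp14, which cleaves collagen at the cell surface and activates pro-Mmp2, had 10.24 and 10.34 with CIA+MLIF, 11.49 and 11.53 with CIA, 10.38 and 10.36 with adjuvant+MLIF, and 10.17 and 10.22 with adjuvant. Mmp14 was 2.48-fold higher in CIA than in adjuvant paws (log2 1.31, adjusted p = 0.000251) and differed by -1.22 between CIA+MLIF and CIA (adjusted p = 0.000591). Mmp2 and its activator Mmp14 thus moved in the same direction in both comparisons.

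Mmp16, another membrane-type enzyme, had 6.62 and 6.66 with CIA+MLIF, 7.48 and 7.68 with CIA, 6.79 and 6.80 with adjuvant+MLIF, and 6.82 and 6.73 with adjuvant; it differed by 0.80 between CIA and adjuvant (adjusted p = 0.00513) and by -0.94 between CIA+MLIF and CIA (adjusted p = 0.00307). Mmp23 had 6.90 and 7.07 with CIA+MLIF, 7.71 and 8.22 with CIA, 7.27 and 7.35 with adjuvant+MLIF, and 6.95 and 7.21 with adjuvant; it differed by 0.89 between CIA and adjuvant (adjusted p = 0.0149) and by -0.98 between CIA+MLIF and CIA (adjusted p = 0.0114). In both genes the CIA arrays did not overlap with any other group. Mmp25, the membrane-bound enzyme of neutrophils, had 6.41 and 6.64 with CIA+MLIF, 6.47 and 7.22 with CIA, 6.66 and 6.66 with adjuvant+MLIF, and 6.49 and 6.48 with adjuvant, and only CIA replicate 2 stood out. Mmp25 did not pass on the deposited scale but did after quantile normalization (0.60 in CIA against adjuvant, adjusted p = 0.0126), and Mmp17 and Mmp24 did not pass.

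The aggrecanases split. Of the 7 ADAMTS genes that act on proteoglycans, Adamts4 and Adamts1 rose in CIA, Adamts5 and Adamts20 fell, and Adamts8, Adamts9 and Adamts15 did not pass. Adamts4, aggrecanase 1, had 6.38 and 6.35 with CIA+MLIF, 7.46 and 7.43 with CIA, 6.52 and 6.49 with adjuvant+MLIF, and 6.45 and 6.41 with adjuvant. It was 2.02-fold higher in CIA than in adjuvant paws (log2 1.02, SE 0.14, adjusted p = 0.00103) and differed by -1.08 between CIA+MLIF and CIA (adjusted p = 0.00101). Its CIA+MLIF arrays lay at the control medians of 6.39 and 6.35. Its adjuvant arrays lay just above theirs, 6.39 and 6.29, so these sizes are not exact.

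Adamts5, aggrecanase 2 and the main aggrecan-degrading enzyme of mouse cartilage, went the other way. It had 9.98 and 10.11 with CIA+MLIF, 9.32 and 9.39 with CIA, 10.21 and 10.15 with adjuvant+MLIF, and 10.11 and 10.14 with adjuvant, so that the CIA arrays were the only ones below 9.5. Its difference was -0.77 between CIA and adjuvant (SE 0.14, adjusted p = 0.00559) and 0.69 between CIA+MLIF and CIA (adjusted p = 0.0124). RefSeq places Adamts5 directly beside Adamts1, with 0 protein-coding genes between them. Adamts1, which cleaves versican and aggrecan, had 8.63 and 8.84 with CIA+MLIF, 9.20 and 9.23 with CIA, 8.50 and 8.56 with adjuvant+MLIF, and 8.57 and 8.51 with adjuvant. It differed by 0.68 between CIA and adjuvant (adjusted p = 0.0124) and by -0.48 between CIA+MLIF and CIA, which did not pass (adjusted p = 0.0568). The 2 neighbours thus differed from adjuvant in opposite directions in CIA.

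Adamts20, a versican-cleaving enzyme of developing skin, had 7.37 and 7.38 with CIA+MLIF, 6.17 and 6.74 with CIA, 7.41 and 7.49 with adjuvant+MLIF, and 7.48 and 7.36 with adjuvant. It differed by -0.96 between CIA and adjuvant (adjusted p = 0.00904) and by 0.92 between CIA+MLIF and CIA (adjusted p = 0.0137). The CIA arrays were below all others but lay apart from each other, with CIA replicate 1 the lower.

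No other ADAMTS gene passed on the deposited scale, neither the 2 procollagen N-propeptidases measured (Adamts3, Adamts14) nor the 9 remaining genes, among them Adamts7 and Adamts12, which cleave cartilage oligomeric matrix protein, and Adamts13, which cleaves von Willebrand factor. After quantile normalization Adamts12, Adamts14, Adamts15, Adamts16, Adamts3 and Adamts9 passed upward in CIA, and with Mmp11 and Mmp25 these 8 additional genes differed by 0.29 to 0.66. Several rows existed for 3 genes. The 6 rows of Adamts9 all differed upward in CIA against adjuvant, from 0.31 to 0.78, and 2 passed, although the row chosen by its mean (0.33) did not. Between CIA+MLIF and CIA, 4 of these 6 rows passed downward. The 16 rows of Adamts3 ranged from -0.35 to 0.62 in CIA against adjuvant with 0 passing, and 2 of them passed downward between CIA+MLIF and CIA. The 5 rows of Adamts17 ranged in CIA against adjuvant from -0.19 to 0.30 with 0 passing.

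The 4 inhibitors did not move together. Timp1, an inducible secreted inhibitor, had 8.49 and 8.87 with CIA+MLIF, 10.77 and 11.05 with CIA, 9.24 and 9.20 with adjuvant+MLIF, and 8.67 and 8.97 with adjuvant. It was 4.28-fold higher in CIA than in adjuvant paws (log2 2.10, SE 0.19, adjusted p = 9.71e-05) and differed by -2.24 between CIA+MLIF and CIA (adjusted p = 0.000141). The inhibitor thus changed in the same direction as Mmp13, Mmp3 and Mmp9.

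Timp2, which at the cell surface also takes part in the activation of pro-Mmp2 by Mmp14, had 11.48 and 11.77 with CIA+MLIF, 11.76 and 11.76 with CIA, 11.82 and 11.82 with adjuvant+MLIF, and 11.65 and 11.80 with adjuvant. It differed by 0.03 between CIA and adjuvant, with an interval from -0.32 to 0.38, which leaves out a change of the size seen in Mmp2 or Mmp14. Timp3, the matrix-bound inhibitor that also blocks aggrecanases, had 11.15 and 11.37 with CIA+MLIF, 10.55 and 10.76 with CIA, 11.37 and 11.39 with adjuvant+MLIF, and 11.29 and 11.58 with adjuvant. It differed by -0.78 between CIA and adjuvant (SE 0.17, adjusted p = 0.0131) and by 0.61 between CIA+MLIF and CIA (adjusted p = 0.0431). The CIA arrays were below all others, but the CIA+MLIF difference was lost when each array was centred on its median (0.38, adjusted p = 0.081).

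Timp4, an inhibitor abundant in muscle and fat, had 8.60 and 8.87 with CIA+MLIF, 6.72 and 7.26 with CIA, 8.71 and 8.63 with adjuvant+MLIF, and 8.17 and 8.58 with adjuvant. It showed the largest fall of the 44 genes, to a level 2.61-fold lower in CIA than in adjuvant paws (log2 -1.38, SE 0.22, adjusted p = 0.00256), and the largest rise with MLIF (1.75, adjusted p = 0.00101). Markers of muscle and fat moved with it. The mean over 8 skeletal muscle markers was 11.90 and 12.21 with CIA+MLIF, 10.23 and 10.53 with CIA, 12.24 and 12.24 with adjuvant+MLIF, and 12.01 and 12.28 with adjuvant. All 8 muscle markers and all 6 adipocyte markers fell in CIA against adjuvant, beside 14.2% of all probe sets. Their part in the Timp4 result was not tested.

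Paws of collagen-immunised mice given MLIF were not called different from adjuvant paws for any gene of the family. In CIA+MLIF against adjuvant 0 of 44 genes passed in limma, beside 0.833% of all probe sets, and 0 passed under every alternative tried. At an unadjusted p under 0.05 there was 1 gene, Mmp12 (-0.48, interval -0.89 to -0.07), and 3.37% of all probe sets. The 17 genes called in CIA lay between -0.22 and 0.36 in this comparison, and their 95% intervals spanned -0.57 to 0.86. For Mmp9 the difference was -0.04 (interval -0.36 to 0.28), for Mmp3 0.04 (-0.34 to 0.42), for Mmp13 -0.22 (-0.53 to 0.09) and for Timp4 0.36 (-0.14 to 0.86). For these 4 genes the intervals leave out changes of the size seen in CIA mice without the peptide.

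MLIF in mice without collagen gave no call either. In adjuvant+MLIF against adjuvant 0 of 44 genes and 0% of all probe sets passed in limma on the deposited scale, and 0 of 44 genes and 1.26% of all probe sets passed after quantile normalization. On the deposited scale, at an unadjusted p under 0.05 there was 1 gene, Mmp13, and 3.82% of all probe sets. The difference of Mmp13 was 0.31 (interval 0.002 to 0.63), that of Mmp9 0.32 (-0.0002 to 0.64), that of Mmp8 0.41 (-0.04 to 0.86) and that of Timp1 0.41 (-0.02 to 0.83). With array weights, 7.765 for the adjuvant+MLIF arrays and 1.24 for the adjuvant arrays, 2 genes passed. Of the 44 differences 34 were positive, with a median of 0.07 beside 0.03 over all probe sets. Both medians were below the median standard error of 0.18. Shares over all probe sets for these counts are not given here. The mean over 12 neutrophil markers was 8.40 and 8.41 on the adjuvant+MLIF arrays and 7.61 and 7.82 on the adjuvant arrays, and its part in these differences was not tested.

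With MLIF in both groups, no gene was called different between collagen-immunised and adjuvant paws. For CIA+MLIF against adjuvant+MLIF, 0 of 44 genes passed in limma, beside 0.729% of all probe sets. An unadjusted p under 0.05 was reached by 4.7% of all probe sets and by 4 of the 44 genes. These were Mmp12 (-0.82), Timp1 (-0.55), Mmp13 (-0.53) and Mmp9 (-0.36), all lower in CIA+MLIF. Array weights called 2 genes in this comparison, with no share over all probe sets given here. Quantile normalization called Mmp12, beside 1.43% of all probe sets.

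The effect of MLIF was then tested for a difference between collagen-immunised and adjuvant mice, as an interaction term. For 11 of 44 genes (25%) the effect was more negative in collagen-immunised mice and for 1 (2.27%) more positive, beside 1.62% and 5.62% of all probe sets. After quantile normalization there were 17 and 4 genes, beside 8.79% and 8.61%. All 12 genes called on the deposited scale were also called in both main comparisons. The same pair of CIA arrays enters each of these tests, so the interaction is no independent evidence beside them. Of the 12 calls 7 held in all 18 alternatives that could be fitted, and those of Adamts4, Mmp16, Mmp2, Mmp23 and Timp4 did not. Fewer genes were called when either adjuvant+MLIF array was left out, and more when either CIA array was left out. Shares over all probe sets in those fits are not given here, so these changes are not read as particular to the family. The difference between the effects was -2.97 for Mmp9 (adjusted p = 6.4e-05), -2.91 for Mmp13 (adjusted p = 6.4e-05), -2.64 for Timp1 (adjusted p = 0.000636) and 1.45 for Timp4 (adjusted p = 0.0226). Adamts5, Adamts20 and Timp3, called in both main comparisons, passed this test after quantile normalization but not on the deposited scale.

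Genes that activate, clear or accompany the metalloproteinases were read from lists of the wider pathway, beside 4.3% of all probe sets rising and 14.2% falling in CIA. In CIA against adjuvant, 3 of 12 activators of the precursors rose and 2 fell. The neutrophil proteases Ctsg (1.80) and Elane (1.67) and the urokinase receptor Plaur (0.71) rose. The proprotein convertase Pcsk6 (-1.08) and hepsin, Hpn (-0.94), fell. The adjuvant mean of Ctsg, 6.31, lay at the control medians of the adjuvant arrays, 6.39 and 6.29, so its size is not exact. Of 6 other inhibitors, the plasminogen activator inhibitor Serpinb2 and Tfpi2 (0.57) rose and the general protease trap A2m fell. Serpinb2 lay below the control median on both adjuvant arrays and was at least 2.13-fold higher in CIA (measured difference 1.63), and A2m lay below it on both CIA arrays (measured difference -0.80). Of 4 genes for clearance and induction, the integrin chain Itgb3 (1.35) and the hyaluronan receptor Cd44 (0.66) rose. Of 14 other matrix proteases 7 rose and 1 fell, led by cathepsin K, the collagen-degrading enzyme of osteoclasts. Ctsk had 9.69 and 10.01 with CIA+MLIF, 11.83 and 11.98 with CIA, 10.08 and 10.05 with adjuvant+MLIF, and 9.70 and 9.98 with adjuvant, a difference of 2.06 between CIA and adjuvant and of -2.05 between CIA+MLIF and CIA.

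Of 14 substrate genes, 5 rose in CIA and 0 fell. These were Lum (1.74), a collagen-binding proteoglycan, and the collagen chains Col11a1 (1.11), Col3a1 (0.96), Col1a1 (0.85) and Col1a2 (0.83). Col11a1 also stands in the chondrocyte marker list, so the cartilage genes did not behave alike. Acan, Col2a1 and Col9a1 of that list did not pass, nor did Comp. Of 13 inducers, Il1b (1.41), Il6 and the AP-1 subunit Fosl1 passed upward and Fos (-1.01) fell. Il6 lay below the control median on all 8 arrays, so no size is given for it. Fosl1 lay below it on both adjuvant and both CIA+MLIF arrays and was at least 1.21-fold higher in CIA than in adjuvant paws. After quantile normalization 4 activators, 4 other inhibitors, 2 clearance genes, 11 other matrix proteases, 9 substrates and 6 inducers rose, beside 14.4% of all probe sets. With MLIF on the deposited scale, 7 other matrix proteases, 6 substrates, 3 activators, 2 clearance genes and 2 inducers fell against CIA, while 2 activators, 1 other inhibitor (A2m, 0.65) and 1 other matrix protease (Meltf, 0.58) rose and no substrate or inducer did. Over all probe sets 3.25% fell and 11.5% rose in that comparison. After quantile normalization 11 other matrix proteases, 9 substrates, 6 inducers, 4 activators, 4 other inhibitors and 2 clearance genes fell, beside 13% of all probe sets. The median difference in CIA was 0.49 for other matrix proteases, 0.33 for substrates and 0.26 for inducers, beside -0.25 over all probe sets.

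Markers of the cells that produce these enzymes differed between the same groups. Of 12 neutrophil markers 11 rose in CIA against adjuvant, as did 7 of 8 osteoclast markers and 6 of 9 fibroblast markers. Of 8 macrophage markers 2 rose and 1 fell. Over all probe sets 4.3% rose and 14.2% fell. The mean over the neutrophil markers was 7.92 and 7.98 with CIA+MLIF and 9.48 and 9.73 with CIA. It was 8.40 and 8.41 with adjuvant+MLIF and 7.61 and 7.82 with adjuvant, so CIA was highest and adjuvant+MLIF next. Group means of Mmp8, Mmp9 and Timp1 had this order, as did those of Mmp13, Mmp14, Mmp3, Mmp16, Mmp23, Adamts4 and the osteoclast markers. Those of Mmp2, Mmp19 and Adamts1, which also rose in CIA, did not. The mean over the osteoclast markers was 7.33 and 7.46 with CIA+MLIF, 8.61 and 8.80 with CIA, 7.58 and 7.61 with adjuvant+MLIF, and 7.31 and 7.49 with adjuvant. The mean over 6 osteoblast markers was 9.56 and 9.83 with CIA and 8.82 to 9.15 on the other arrays. The mean over 8 chondrocyte markers was 7.82 and 8.30 with CIA, the lowest and the highest of all arrays. Elane stands in both the activator and the neutrophil list, and Ctsk and Itgb3 also stand in the osteoclast list. The part of these markers in the Mmp and Timp1 results was not tested.

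Epidermal genes differed more between collagen-immunised and adjuvant mice than any of the 44 genes did. Their mean was also higher on both CIA arrays than on both CIA+MLIF arrays, and it was close between the adjuvant groups. The mean over 7 keratinocyte markers was 10.72 and 10.83 with CIA+MLIF, 11.68 and 11.95 with CIA, 5.94 and 5.91 with adjuvant+MLIF, and 5.88 and 5.81 with adjuvant. Both collagen-immunised groups thus carried keratinocyte markers that the adjuvant groups read below their array medians, a difference between samples that the labels do not describe. In CIA+MLIF against adjuvant all 7 keratinocyte markers rose, with a median of 4.96, while 0 of the 44 protease and inhibitor genes passed. Over all probe sets 0.688% rose in that comparison. In CIA against adjuvant, where 17 genes passed, the keratinocyte markers also differed, and their part in those 17 calls was not tested. Nor was their part in the calls between CIA+MLIF and CIA tested.

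**Figure D4:**
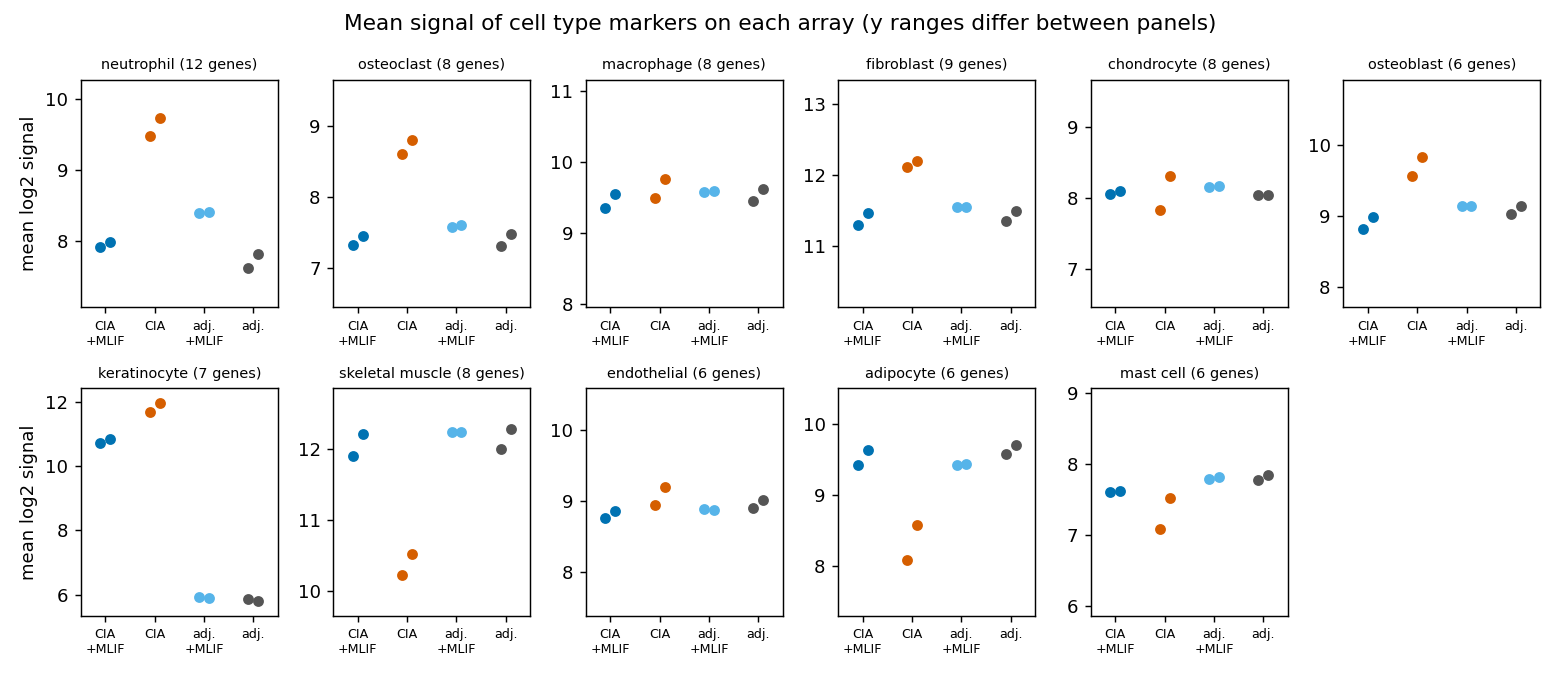
Mean log2 signal (y axis, ranges differ between panels) of 11 lists of cell type markers on each array, by group (x axis; adj., adjuvant). Neutrophil, osteoclast, fibroblast and osteoblast means are highest on the CIA arrays, and muscle and adipocyte means are lowest there. Keratinocyte means are near 11 to 12 in both collagen-immunised groups and near 6 in both adjuvant groups.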

How the data were processed

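Paw RNA was hybridised to 8 arrays (4 groups, 2 arrays each), 1 colour. In the deposited table each probe set has a log2 signal on each array, a scale read from the values. How the authors corrected background, summarised probes and scaled arrays is not given in the sources used here. The 8 arrays did not share 1 distribution. Of 35557 table entries, 6613 leading entries without annotation were taken as controls and left out of the tests. Of the other 28944, the platform annotation gave 1 symbol to 21789, several to 1621 and none to 5534. All 44 genes were found in RefSeq. No columns of other samples were present (0).

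Group means were fitted on all 8 arrays with limma 3.58.1 in R 4.3.3, with 4 residual degrees of freedom plus 4.96 from the prior, 2-sided, with Benjamini-Hochberg adjustment over 28944 probe sets, 95% intervals, and 6 comparisons. The number of arrays limits the precision. Values on every array are given for the collagenases, stromelysins, gelatinases, Mmp12, Mmp14, Mmp19, Adamts1, Adamts4, Adamts5 and the TIMPs, and for others among the 10 largest called changes per direction. Mmp25 was added after its values were seen. In pathway lists, up to 4 called genes per direction are named. The members, the 9 role lists, 6 pathway lists and 11 marker lists were chosen with earlier results of these data known. Listed symbols without a match were not analysed here. Tried alternatives, 19 in all, were quantile normalization, centring of arrays, filters, other variance settings, array weights, other sample sets, left-out arrays and a replicate block. Promoter sequences are RefSeq's (GRCm38.p6). Figures were drawn with Python 3.11.15 and Matplotlib 3.10.9.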

Additional observations from a re-analysis of the deposited data

Results flagged for a closer look

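The effect of MLIF differed between collagen-immunised and adjuvant mice by the interaction test for 12 genes, each value being the effect in collagen-immunised mice minus that in adjuvant mice on the log2 scale. For the collagenases the difference was -2.91 for Mmp13 and -2.47 for Mmp8, whose CIA+MLIF and adjuvant arrays lay below the control median, so that the size for Mmp8 is not exact. For the stromelysin Mmp3 it was -2.13, and for the gelatinases it was -2.97 for Mmp9 and -0.96 for Mmp2. It was -1.36 for Mmp19, -1.39 for Mmp14, -0.96 for Mmp16 and -1.21 for Mmp23. It was -1.16 for the aggrecanase Adamts4, whose CIA+MLIF arrays lay at the control median, so that this size is not exact. For the inhibitors it was -2.64 for Timp1 and 1.45 for Timp4, the only positive one. In limma's fit the adjusted p ranged from 6.4e-05 for Mmp9 and Mmp13 to 0.0315 for Mmp23. The results for Adamts4, Mmp16, Mmp2, Mmp23 and Timp4 were lost in some of the 18 alternatives, and the other 7 held in all of them. All 12 genes were also called in both main comparisons, which share the CIA arrays with this test and are not independent of it.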

How the results depend on the processing

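The counts below are of the 44 genes passing. Shares over all probe sets are not given beside them, so they show how the calls vary and are not a result about the family. In CIA against adjuvant, 17 as reported, the count was 10 with array weights, and 10 (without adjuvant replicate 2) to 29 (without CIA replicate 2) when arrays were left out in turn. In CIA+MLIF against CIA, 15 as reported, it was 24 after quantile normalization, 24 with centred arrays and 25 after quantile normalization without CIA replicate 1, and 11 to 34 when arrays were left out, the highest without CIA replicate 2. In the interaction, 12 as reported, it was 21 after quantile normalization, 19 with centred arrays, 22 after quantile normalization without CIA replicate 1 and 7 with the adjuvant+MLIF arrays averaged as 1, and 7 to 26 when arrays were left out, the lowest without either adjuvant+MLIF array and the highest without CIA replicate 2. In CIA+MLIF against adjuvant+MLIF, 0 as reported, it was 2 with array weights and 1 with quantile normalization, centring, only the groups compared, or quantile normalization without CIA replicate 1, and 0 to 2 when arrays were left out, the highest without CIA replicate 1. In adjuvant+MLIF against adjuvant, 0 as reported, it was 2 with array weights. In CIA+MLIF against adjuvant it was 0 throughout. Adamts18 changed sign without CIA replicate 2, at -0.3962 in CIA against adjuvant (adjusted p = 0.0118; 0.06 as reported, range -0.3962 to 0.5178 over left-out arrays) and 0.3704 in the interaction (adjusted p = 0.0494; -0.09 as reported, range -0.5437 to 0.3704). The cause of these changes was not tested.

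Same-numbered arrays of CIA+MLIF and adjuvant deviated together (correlation 0.39), but those of the other 5 pairs of groups did not (-0.108 to 0.00493), and the numbers were not treated as pairs. With the replicate block, 17 genes passed in CIA against adjuvant, 16 in CIA+MLIF against CIA, 12 in the interaction and 0 in the others. With the CIA numbers crossed, added after seeing the data as was quantile normalization without CIA replicate 1, 17, 15 and 12 passed. Of the 44 genes, 7 lay below the control median on all 8 arrays and 4 on some, which limits what can be measured there.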
